A study of Mus musculus with 8 samples.

Results

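The regions described here are the SMC1 binding sites that were found in NMDA-treated mouse cortical neurons and met no binding site of the untreated ones. They are the lines of the NMDA peak list whose interval overlapped no interval of the resting list by 1 bp or more, with lines above a strength of 200 left out. This gave 405 regions of 1684 in the NMDA list, or 24.0% (14043 regions in the NMDA and resting lists together). They are called NMDA-only peaks. They were chosen by measured values, namely the positions in both lists and the strength ceiling, so their number, their strength and their lack of a resting partner are descriptions and carry no test.

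The study mapped SMC1 by chromatin immunoprecipitation and sequencing (ChIP-seq) in 8 samples, in 4 groups of 2. These were SMC1 ChIP and input DNA of wild-type cultures given NMDA, and SMC1 ChIP and input DNA of untreated wild-type cultures. All cultures were cortical neurons prepared from Swiss-Webster embryos at embryonic day 16 and kept for 13 days in vitro. NMDA cultures received 50 µM of the drug for 10 min and were collected after 50 min without it, and chromatin was sheared to between 200 and 500 bp. The culture protocol in the labels also describes etoposide, but no sample carries it as a treatment. A culture of this kind holds mostly neurons along with other cells of the cortex, and peak lists hold no RNA, so the labelled cell type could not be checked against marker expression. The authors deposited 1 list for each condition, made from both ChIP replicates, and the depth of the libraries is unknown. A region absent from the resting list was not called reproducibly there, which is not a measurement of absent SMC1.

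SMC1 is a core subunit of cohesin, a ring-shaped complex that holds sister chromatids together and, in neurons that no longer divide, folds the genome by extruding loops of chromatin. Loops grow until cohesin meets a barrier, most often the zinc finger protein CTCF bound in the right orientation. Cohesin is loaded with the help of NIPBL, is also found at active promoters, and is released by WAPL. NMDA opens calcium-permeable glutamate receptors, and the calcium that enters sets off rapid transcription of activity-response genes.

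Most NMDA-only peaks had the start of a gene within 1 kb of the summit, and the DNA at the strongest of them shows what these promoters are like. The sequences shown are the 250 bases before the transcription start for the 8 highest-ranked genes with an NMDA-only peak at an end and a promoter in the RefSeq table (GRCm38.p6). They were ranked by peak strength, not by their motifs, and are written 5′ to 3′ on the gene's own strand. Capitals mark matches, on either strand, to any of 11 short motifs: the CTCF core as AGGGGGC or AGGTGGC or AGATGGC, YY1 as ATGGCGG, NRF1 as GCATGCG, ETS as CCGGAAG, SP/KLF as GGGCGGG, CRE as TGACGT, AP-1 as TGANTCA, E-box as CACGTG, the TATA box as TATAAA, the CCAAT box as CCAAT and ZNF143 as ACTACAA. Tead1 and Nadk2, which also ranked among the strongest, have no entry in the table.
Yy1 promoter, chr12:108793047-108793296, plus strand: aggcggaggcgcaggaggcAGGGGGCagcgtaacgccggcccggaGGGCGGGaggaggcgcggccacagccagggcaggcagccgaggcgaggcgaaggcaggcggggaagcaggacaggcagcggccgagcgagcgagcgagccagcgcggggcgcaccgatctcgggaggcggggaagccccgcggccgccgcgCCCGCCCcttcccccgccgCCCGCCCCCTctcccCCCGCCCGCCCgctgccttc
Faf2 promoter, chr13:54621534-54621783, plus strand: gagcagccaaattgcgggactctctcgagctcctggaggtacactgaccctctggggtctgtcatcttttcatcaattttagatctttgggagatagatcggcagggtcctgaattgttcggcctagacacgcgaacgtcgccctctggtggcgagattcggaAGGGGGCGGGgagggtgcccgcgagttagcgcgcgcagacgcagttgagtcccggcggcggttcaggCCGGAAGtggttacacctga
Agrn promoter, chr4:156197489-156197738, minus strand: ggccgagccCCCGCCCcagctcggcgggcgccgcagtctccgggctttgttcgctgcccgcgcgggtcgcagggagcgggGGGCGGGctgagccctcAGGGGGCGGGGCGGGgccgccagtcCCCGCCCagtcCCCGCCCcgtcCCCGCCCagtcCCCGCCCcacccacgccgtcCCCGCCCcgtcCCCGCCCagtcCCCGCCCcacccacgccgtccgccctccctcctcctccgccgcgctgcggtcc
Ptar1 promoter, chr19:23687150-23687399, plus strand: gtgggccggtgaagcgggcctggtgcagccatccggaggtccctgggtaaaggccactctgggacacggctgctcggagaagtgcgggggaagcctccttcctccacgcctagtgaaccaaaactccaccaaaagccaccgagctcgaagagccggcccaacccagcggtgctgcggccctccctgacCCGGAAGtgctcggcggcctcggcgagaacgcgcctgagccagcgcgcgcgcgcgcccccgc
Mphosph10 promoter, chr7:64392237-64392486, minus strand: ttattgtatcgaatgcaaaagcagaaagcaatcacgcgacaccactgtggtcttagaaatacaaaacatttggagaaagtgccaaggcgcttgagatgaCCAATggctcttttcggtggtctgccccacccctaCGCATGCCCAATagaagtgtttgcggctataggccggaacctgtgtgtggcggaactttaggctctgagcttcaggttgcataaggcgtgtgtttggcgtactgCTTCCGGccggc
Pcf11 promoter, chr7:92669913-92670162, minus strand: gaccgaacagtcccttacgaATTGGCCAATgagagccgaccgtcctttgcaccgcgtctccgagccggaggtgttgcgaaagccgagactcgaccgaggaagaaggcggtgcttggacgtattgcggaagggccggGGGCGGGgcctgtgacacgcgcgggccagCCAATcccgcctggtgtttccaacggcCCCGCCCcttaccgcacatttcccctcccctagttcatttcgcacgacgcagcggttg
Ep300 promoter, chr15:81585964-81586213, plus strand: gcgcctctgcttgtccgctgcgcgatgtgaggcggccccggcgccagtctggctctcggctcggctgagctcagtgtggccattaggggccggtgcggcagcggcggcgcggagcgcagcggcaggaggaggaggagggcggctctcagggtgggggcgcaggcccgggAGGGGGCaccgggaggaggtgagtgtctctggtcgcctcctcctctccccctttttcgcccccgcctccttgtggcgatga
Znrf1 promoter, chr8:111536390-111536639, plus strand: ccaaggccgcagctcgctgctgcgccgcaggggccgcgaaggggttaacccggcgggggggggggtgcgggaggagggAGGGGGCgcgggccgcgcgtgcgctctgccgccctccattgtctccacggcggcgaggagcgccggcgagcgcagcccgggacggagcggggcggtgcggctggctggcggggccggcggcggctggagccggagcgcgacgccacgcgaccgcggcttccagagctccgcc

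The Yy1 and Agrn promoters carry several SP/KLF matches and Pcf11 a pair, and most of those in Agrn lie on the strand opposite to the gene. A CTCF-core match lies in the Yy1, Faf2, Agrn, Ep300 and Znrf1 sequences. In Faf2 and Agrn, and on the opposite strand in Yy1, a CTCF-core match overlaps an SP/KLF match, since AGGGGGCGGG holds both motifs, so the 2 cannot be told apart there. The Ptar1 sequence holds 1 ETS match and none of the other 10 motifs, and Mphosph10 holds ETS, NRF1 and CCAAT matches. No TATAAA stands in any of the 8. Only the listed forms of each motif were marked, so another form of a CTCF or other site can stand in lower case. A match is a string of letters and does not show that a factor was bound.

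The strength of a peak is the sum of the authors' −log10 p from the peak caller in the 2 ChIP replicates, and it grows with library depth as well as with enrichment. NMDA-only peaks had a median strength of 21.4, with quartiles of 19.7 and 24.2 and a range of 17.9 to 96.4. The shared NMDA peaks, the 1272 lines of the same list that met a resting peak and lay under the same ceiling, had a median of 23.8. NMDA-only peaks lay toward the weaker side of the list. The irreproducible discovery rate (IDR) of a peak is low when the peak ranks high in both replicates. The IDR of NMDA-only peaks had a median of 0.0309. An IDR up to 0.01 was found for 33 of 405 NMDA-only peaks, against 310 of 1272 shared NMDA peaks.

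The first replicate column, as ordered in the file, had a median −log10 p of 11.5 over NMDA-only peaks, with a range of 6.75 to 24.9. The second had a median of 9.72 and a range of 6.06 to 75.8. The first column was the higher one in 264 of 405 NMDA-only peaks (65.2%) and in 70.8% of shared NMDA peaks. The file does not say which sample either column holds. The log2 ratio of the first over the second column had a median of 0.24 and ran from −1.88 to 2.03. Values in the second column were repeated: 40 NMDA-only peaks held the same 8.03, and the 405 peaks held 179 distinct values. The summits called in the 2 replicates lay a median of 190 bp apart in NMDA-only peaks, 145 bp apart in shared NMDA peaks and 45 bp apart in resting-only peaks. Across the 405 peaks the columns had a Spearman correlation of −0.45, given as a description, because both columns enter the limit that a peak had to pass.

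**Figure D1:**
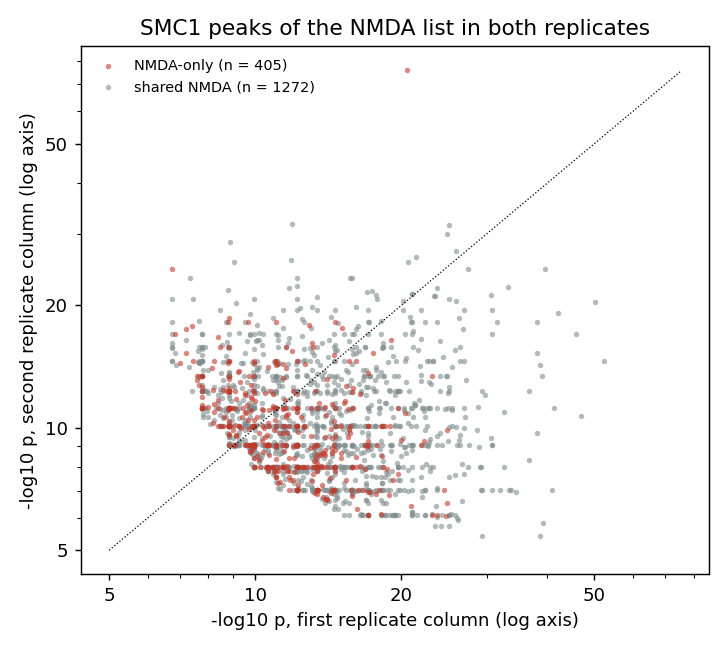
Replicate values of the peaks in the NMDA list, as −log10 p in the first replicate column (x axis, log scale) against the second (y axis, log scale); each point is a peak, red for the 405 NMDA-only peaks and grey for the 1272 shared NMDA peaks, and the dotted line marks equal values. NMDA-only peaks crowd toward the low edge, with rows of points at repeated values such as 8.03, and the peak near Pak3 stands alone at 20.5 and 75.8.

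The strongest NMDA-only peak was unlike the rest. It lay on chromosome X at 143482738 to 143483371, 35.3 kb from Pak3, a kinase gene of synaptic signalling, with 20.5 in the first and 75.8 in the second replicate column. Its summed strength of 96.4 was far above the next value, and its log2 column ratio of −1.88 was the lowest of all. No resting peak lay within 383 kb of it. It was 1 of the 16 intergenic NMDA-only peaks.

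Below it came the Yy1 peak, with replicate values of 23.1 and 13.4 and a strength of 36.5. Yy1 encodes a zinc finger factor found at promoters and enhancers, which it can bring together, and its peak covered chromosome 12 from 108792060 to 108793293. The peak at Tead1, whose product is the DNA-binding partner of YAP, had 19.1 and 16.4 and lay 175 bp from a resting peak of strength 33.5. Both replicates gave Tead1 a high value, and it is close to the edge of the rule by position.

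Faf2, which encodes an adaptor for degradation of endoplasmic reticulum proteins, had 24.9 and 9.86. Nadk2, the mitochondrial NAD kinase gene, had 14.6 and 18.2, and Agrn, the gene of the synapse organiser agrin, had 17.4 and 15.3. In Faf2 the first column carried most of the sum, while in Nadk2 and Agrn the columns were close. Ptar1 had 15.1 and 17.5. Mphosph10, a gene of ribosomal RNA processing, had 22.3 and 9.30. Pcf11, whose product acts in transcript cleavage and termination, had 24.4 and 7.04.

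Ep300 encodes a histone acetyltransferase that serves as a coactivator at enhancers and promoters. Its peak, on chromosome 15 at 81585858 to 81586871, had 6.75 in the first and 24.6 in the second replicate column, the reverse of most others. Among the next 10 peaks by strength were those at the translation elongation factor gene Eef1a1 (31.2), the ubiquitin ligase gene Znrf1 (31.3), the cAMP-responsive transcription factor gene Crem on chromosome 18 (30.8) and Lsm2, a gene of the U6 splicing particle (30.1). The others lay at Fbrs, Gopc, Wbp2, BC037704 and Eepd1 and inside Angptl6, with 29.8 to 31.0. Crem had the most uneven pair in favour of the first column, 24.8 and 6.06. Eepd1, Znrf1, Tbl2 and Pcf11 followed it, with log2 ratios of 1.80 to 1.96. In the opposite direction, Pak3 and Ep300 were followed by Fubp1 (−1.32), the peak at Setd5 and the ROSA26 transcript (−1.28) and Frmd4b (−1.27). For all of these, strength rests mainly on 1 library.

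At the other end of the range, the 5 weakest NMDA-only peaks had strengths of 17.9 to 18.1. They lay at Fgd4, Eif2b3, Uxs1 and the noncoding gene Gm38709, and 2127 bp from an end of Srf, the gene of the serum response factor that drives activity-response genes. At Srf the peak held the transcription start of the gene's annotated promoter, with its summit 18 bp before it, and the replicate values were 9.09 and 9.05. The even columns at Srf contrast with the uneven ones at Crem.

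The NMDA-only peaks covered 433 kb in all. Their median width was 1027 bp, with quartiles of 798 and 1295 bp, and that of shared NMDA peaks was 1036 bp. Resting-only peaks, the 11037 resting lines that met no NMDA peak, were narrower at 618 bp. The widest NMDA-only peak, at 2347 bp, lay inside Prdm2. The gene end nearest to it, 4700 bp away, was that of the pseudogene Gm13039. Those at Agrn, Metrnl, the small nucleolar RNA host gene Snhg10 and Arsg had 2106 to 2318 bp. The narrowest, at 408 bp, was at Gtf3c2, a subunit gene of the RNA polymerase III factor TFIIIC.

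Position relative to genes was the clearest property of these regions. A peak was placed at a gene end when its midpoint was no more than 1 kb from either end of a RefSeq gene, which holds for 324 of 405 NMDA-only peaks (80.0%, exact 95% interval 75.8 to 83.8%). Of the others, 64 lay inside a gene (15.8%), 16 were intergenic (3.95%) and 1 was on an unplaced contig. The gene-end share was 56.0% in shared NMDA peaks, 54.7% in shared resting peaks and 25.9% in resting-only peaks. Intervals cover counting error over peaks only. Regions of 1 list share the same 2 libraries and are not replicates, so no test of these shares is given. With 2 samples against 2, the smallest p that an exact test allows is 0.33.

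The gene nearest to those 324 peaks was protein-coding in 291 cases, a long noncoding RNA in 25, a microRNA in 4, a transfer RNA in 3 and a transcribed pseudogene in 1. A protein-coding end lay within 1 kb of 306 of 405 NMDA-only peaks (75.6%), and only a noncoding one of 18 (4.44%). The gene-end share did not rise or fall steadily with strength. In 4 equal groups ranked by strength, from the weakest to the strongest, it was 75.5%, 87.1%, 72.3% and 85.1%.

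RefSeq promoters, which carry a strand, separate gene starts from the 3′ ends that share the gene-end label. The table covers the chromosomes of 391 NMDA-only peaks and not those of the 13 on chromosome 18 and the 1 on a contig. A transcription start lay inside 272 of the 391 (69.6%, 64.7 to 74.1%), against 45.6% of shared NMDA, 43.3% of shared resting and 15.4% of resting-only peaks. A gene's 3′ end without a start lay inside 2 of 391 (0.512%). Starts and 3′ ends were known only for genes in the promoter table. It held 298 of the 373 protein-coding genes with an NMDA-only peak at an end. Peaks at other genes could count as neither, so the shares with a start and with a 3′ end may be too low. A start within 1 kb of the summit was found for 286 of 391 (73.1%, 68.5 to 77.5%), against 49.8% of shared NMDA, 47.6% of shared resting and 19.6% of resting-only peaks.

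**Figure D2:**
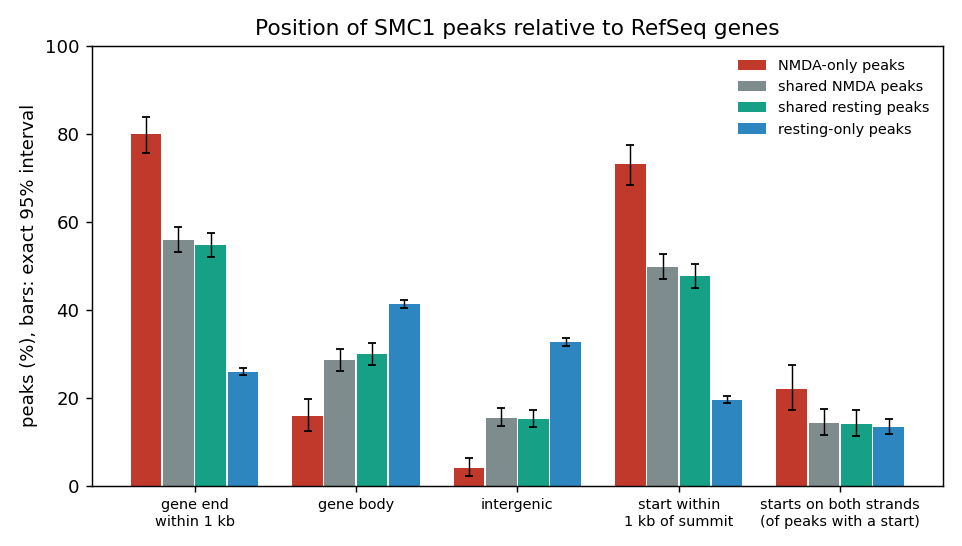
Position of SMC1 peaks, as the percentage of peaks (y axis) at a gene end, inside a gene, intergenic, with a start within 1 kb of the summit, and with starts on both strands among peaks that hold a start; bars stand for NMDA-only, shared NMDA, shared resting and resting-only peaks and error bars for exact 95% intervals. NMDA-only peaks have the tallest bars at gene ends (80.0%) and starts (73.1%) and the shortest for intergenic peaks (3.95%).

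NMDA-only peaks also sat close to the start itself. For the 286 with a start within 1 kb, the summit lay a median of 52 bp into the gene, with quartiles of −69 and 185 bp, where negative values are upstream. In shared NMDA peaks the median was 36 bp and the quartiles were wider, at −131 and 236 bp. The summit was downstream of the start in 179 of 286 NMDA-only peaks (62.6%, 56.7 to 68.2%), 56.2% of shared NMDA peaks (52.2 to 60.2%) and 56.5% of resting-only peaks (54.3 to 58.6%), and these intervals overlap. Replicate summits alone moved the start share little, to 71.9% with the first and 73.9% with the second.

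**Figure D3:**
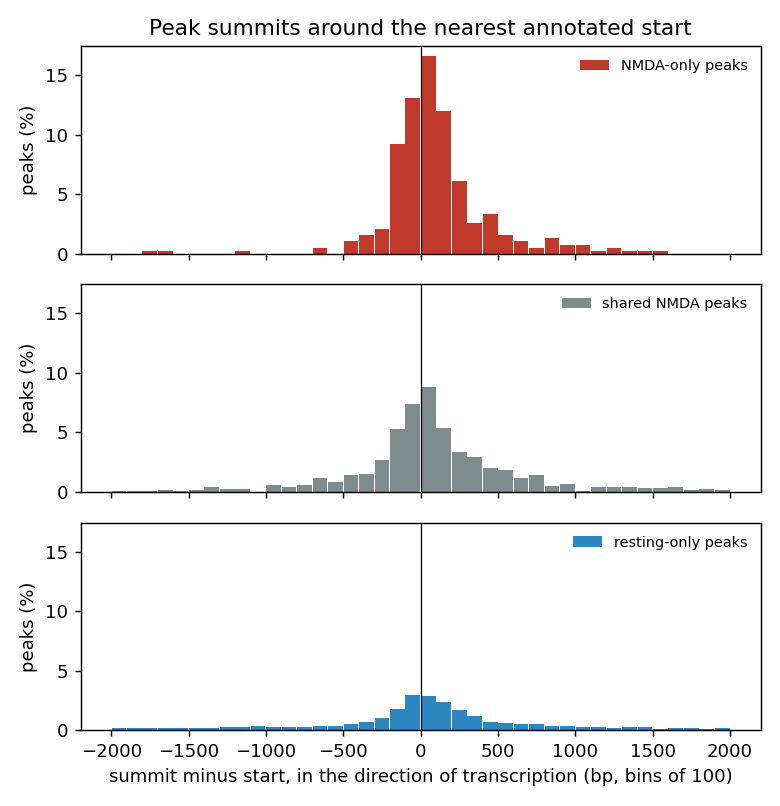
Distance from the nearest annotated start to the peak summit (x axis, bp in the direction of transcription, bins of 100) as the percentage of peaks of each class (y axis), for NMDA-only, shared NMDA and resting-only peaks. The NMDA-only histogram is the tallest and narrowest, with its highest bin just downstream of the start.

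Some peaks held starts on both strands, as a divergent promoter does, from which 2 genes run in opposite directions. Starts of any gene type were counted and their order was not checked, so not every case need be divergent. A wider peak can also hold more starts, and resting-only peaks were narrower (median 618 bp, against 1027 bp in NMDA-only peaks). Starts on both strands lay inside 60 of the 272 NMDA-only peaks with a start (22.1%, 17.3 to 27.5%), 80 of 560 shared NMDA peaks (14.3%, 11.5 to 17.5%), 14.1% of shared resting and 13.4% of resting-only peaks. The intervals of NMDA-only and shared NMDA peaks overlap by a narrow margin. Pairs under a single peak included Eif2a, a translation initiation factor gene, with Serp1, a gene of the endoplasmic reticulum stress response. Other pairs were the chaperone gene Dnajb4 with Fubp1, and Kin with Atp5c1, a subunit gene of the mitochondrial ATP synthase. In all, 66 NMDA-only peaks lay at the ends of more than 1 protein-coding gene.

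The 373 protein-coding genes with an NMDA-only peak at an end were 1.70% of 21887. For shared NMDA peaks the share was 3.12%, and for any resting peak 14.3%. The gene bodies with NMDA-only peaks had a median length of 26.9 kb, against 38.3 kb for genes with a shared NMDA peak and 17.2 kb for all protein-coding genes. Scai, a regulator of transcription linked to cell invasion, was the single gene with an NMDA-only peak at both ends. The peak at its start had a strength of 20.1. The peak at its other end had 22.97 and its summit was 12 bp from the start of Golga1, a golgin gene.

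Genes of chromatin and of the control of transcription were among them. Of 13 architectural and promoter factor genes, 2 had an NMDA-only peak at an end (15.4%), Yy1 (36.5) and Ep300 (31.4). A list of 132 chromatin modifier genes was added after the peaks had been seen and is therefore only counted. Of these, 18 had an NMDA-only peak at an end (13.6%, against 1.70% of all genes). A shared NMDA peak was found at 5 (3.79%, against 3.12%) and any resting peak at 27 (20.5%, against 14.3%). The 18 with an NMDA-only peak included the histone methyltransferase genes Ash1l (23.4), Kmt2b (22.1) and Setd7 (25.6). Also among them were the acetyltransferase genes Kat2b (22.3) and Kat7 (18.5) and the remodeller genes Chd8 (27.4), Smarca4 (22.8) and Smarcad1 (21.3). The Polycomb-associated gene Asxl2 (28.7), Brpf1 (24.6), Setd5 (24.8), Bcl7a (22.6), Brwd1 (22.6), Mbd4 (22.2), Ing3 (22.0), Mbd3 (21.2), the arginine methyltransferase gene Carm1 (20.9) and Ep300 completed the set. At Chd8 the replicate columns were uneven, with 21.0 and 6.41, while at Ash1l they were 12.2 and 11.2.

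Of 56 genes whose symbols start as those of translation initiation factors, 5 had an NMDA-only peak at an end (8.93%, against 1.70% of all genes). The list rests on symbols and not on function. A shared NMDA peak was found at 1 (1.79%, against 3.12%) and any resting peak at 7 (12.5%, against 14.3%). The 5 with an NMDA-only peak were Eif2a (27.2), Eif5a (22.4), Eif4b (20.4), Eif3a (19.4) and Eif2b3 (18.04). Eif2b3 is a subunit gene of the exchange factor that recharges eIF2. Eif2a had 14.1 and 13.2 in the replicate columns and Eif2b3 10.0 and 8.03. Eif4b had a resting peak 7353 bp away and the other 4 had none within 10 kb of their peaks.

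Of 95 genes whose symbols start as those of ribosomal proteins, 3 had one (3.16%, against 1.70% of all genes), Rps12 (22.2), Rpl14 (18.9) and Rps6kb1 (20.9), which encodes a kinase of ribosomal protein S6 and no ribosomal protein. Of 68 splicing genes 4 had one (5.88%), Hnrnpd (21.4), Hnrnpc (21.2), Hnrnpa3 (19.5) and Srsf10 (19.2), and of 53 RNA helicase genes 1 (1.89%, close to all genes), Ddx54 (26.7). Of 106 RNA polymerase and general transcription factor genes 4 had one (3.77%), among them the TFIIIC subunit genes Gtf3c1 (22.6) and Gtf3c2 (19.1), with Taf8 (20.9) and the Mediator gene Med27 (18.6). RNA polymerase III, which TFIIIC recruits, transcribes transfer RNA genes, and 4 of 408 of these (0.980%) had an NMDA-only peak at an end, namely n-TPagg2, n-TPcgg2, n-TStga3 and n-TQttg6. The proline transfer RNA genes n-TPagg2 and n-TPcgg2 shared 1 peak, of strength 26.8.

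Genes of protein folding and turnover had shares on either side of the 1.70% of all genes. Of 84 chaperone genes 4 had an NMDA-only peak at an end (4.76%). They were the mitochondrial chaperone gene Hspa9 (25.6), Dnajb4 (23.8), the endoplasmic reticulum chaperone gene Hsp90b1 (21.5) and Dnajb1 (21.4). A shared NMDA peak was found at 8 (9.52%, against 3.12% of all genes). Of 240 ubiquitin system genes 8 had an NMDA-only peak at an end (3.33%), led by Fbxl20 (25.1) and Ube2f (21.3). A shared NMDA peak was found at 13 of the 240 (5.42%, against 3.12% of all genes). Of 51 proteasome genes none had a peak of either NMDA class at an end. A list of 51 can hold none at the shares of all genes (1.70% and 3.12%). Any resting peak was found at 11 of the 51 (21.6%, against 14.3% of all genes). Vesicle traffic had an NMDA-only peak at an end in 4 of 169 genes (2.37%), led by Sec16a (26.7). Solute carriers had one in 6 of 375 (1.60%, close to all genes), led by the mitochondrial iron carrier gene Slc25a28 (30.7). The mitochondrial ribosome had 1 of 78 (1.28%, Mrpl45), the respiratory chain 1 of 105 (0.952%, Atp5c1) and zinc finger genes named Zfp 3 of 397 (0.756%), all under the share of all genes. DNA repair and topoisomerases had 2 of 43 (4.65%), Top1 (22.5) and Fancm (18.9).

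A list of 16 clock genes was also added after the peaks had been seen and is therefore only counted. Of these, 2 had an NMDA-only peak at an end (12.5%, against 1.70% of all genes). A shared NMDA peak was found at 2 (12.5%, against 3.12%) and any resting peak at 8 (50%, against 14.3%). The 2 with an NMDA-only peak were the paired heme receptor genes Nr1d1 (22.5) and Nr1d2 (18.5).

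Genes specific to neurons and to the response to activity were counted next. At a share of 1.70% over all genes, lists of 15 to 24 genes would often hold none, so a 0 among them shows no scarcity. None of 22 early response genes had an NMDA-only peak at an end. A shared NMDA peak was found at 3 (13.6%, against 3.12% of all genes) and any resting peak at 12 (54.5%, against 14.3%). Counted within 10 kb of the gene body, 2 of 22 (9.09%) had an NMDA-only peak, against 2.70% of all protein-coding genes, for which shared NMDA peaks gave 6.36%. The peak inside Nr4a2, an early response gene of the nuclear receptor family, had 7.59 and 13.1. None of 24 glutamate receptor genes had an NMDA-only peak at an end, while 3 had a shared NMDA peak (12.5%, against 3.12% of all genes). Within 10 kb of the body 2 of 24 (8.33%) had an NMDA-only peak. A peak lay inside the kainate receptor gene Grik3 (8.21 and 14.6), 3297 bp from a resting peak. None of 94 potassium channel genes had an NMDA-only peak at an end and 1 (1.06%) had one within 10 kb. At an end, 3 had a shared NMDA peak (3.19%, close to 3.12% of all genes) and 21 any resting peak (22.3%, against 14.3%). A list of 94 can also hold none at the share of all genes. Of 104 adhesion genes 1 had one (0.962%), the protocadherin gene Pcdh10 (28.1), and this peak had a resting neighbour 691 bp away. None of 15 genes of cohesin, its loaders and releasers and CTCF had one, against 3 (20%) with a shared NMDA peak.

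Genes typical of other cells were counted in the same way. None of 1460 olfactory and vomeronasal receptor genes had an NMDA-only peak at an end, against 1.70% of all genes. The other classes were alike there, with no shared NMDA peak and any resting peak at 2 (0.137%, against 14.3% of all genes). None of 53 keratin genes had an NMDA-only peak at an end, a list too short to read at 1.70%. Of 5 markers each of astrocytes, oligodendrocytes, microglia and endothelial cells, 1 had one, the oligodendrocyte lineage gene Olig1 (10.5 and 9.48). None of 9 neuronal markers had one, and 1 had any resting peak (11.1%, against 14.3% of all genes). A peak at a gene is not a measure of that gene's expression, so these counts do not describe the cells in the culture.

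Other peaks touched known regulators of neurons. These were chosen after their values had been seen. Rcan1, an inhibitor of the calcium-activated phosphatase calcineurin, had 8.36 and 11.2, with the summit 8 bp before its start. Jdp2, a gene of an AP-1 family repressor, had 8.59 and 10.1. Ube3a, the ubiquitin ligase gene of Angelman syndrome, had 12.3 and 7.22, and the scaffold gene Cask 12.2 and 9.05, with a resting peak of strength 19.1 at the same gene 340 bp away. A peak inside Ppargc1a, the gene of a coactivator of mitochondrial biogenesis, had 16.3 and 7.04 and lay 563 kb from any resting peak. The columns were within a few units of each other at Rcan1 and Jdp2 and apart at Ppargc1a.

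Distances from NMDA-only peaks to resting peaks varied widely. The rule removed every overlapping peak, and no distance was computed for other positions of the genome. The distances are therefore not read as near or far. The nearest resting peak lay a median of 43.4 kb away, with quartiles of 16.1 and 91.0 kb and a range of 0.055 to 1994 kb. A resting peak lay within 1 kb of 16, within 5 kb of 45 (11.1%), within 50 kb of 227 (56.0%) and within 100 kb of 317 (78.3%). Another peak of the NMDA list lay within 5 kb of 8. Of the 373 genes, 135 (36.2%) had a resting peak within 10 kb of the gene body, close to 38.2% of all protein-coding genes, and 16 had one at an end as well.

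Some NMDA-only peaks lay only just outside a resting peak. The peak at the neighbouring zinc finger genes Zbtb1 and Zbtb25 missed a resting peak of strength 39.4 by 55 bp. Those at the cytoskeletal gene Septin7, inside Hivep2, at Tead1 and at Atl2 missed one by 124 to 206 bp. Just outside the rule, the NMDA peaks nearest to Cyp46a1, Faiml and Hif1a overlapped a resting peak by 105, 113 and 115 bp and had strengths of 22.4, 20.9 and 22.96. On the side of the ceiling, a pair of peaks on chromosome 2 from 98662239 to 98662938 and from 98664851 to 98665406 had strengths of 396 and 277 and was left out. The next value inside was that of Pak3.

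**Figure D4:**
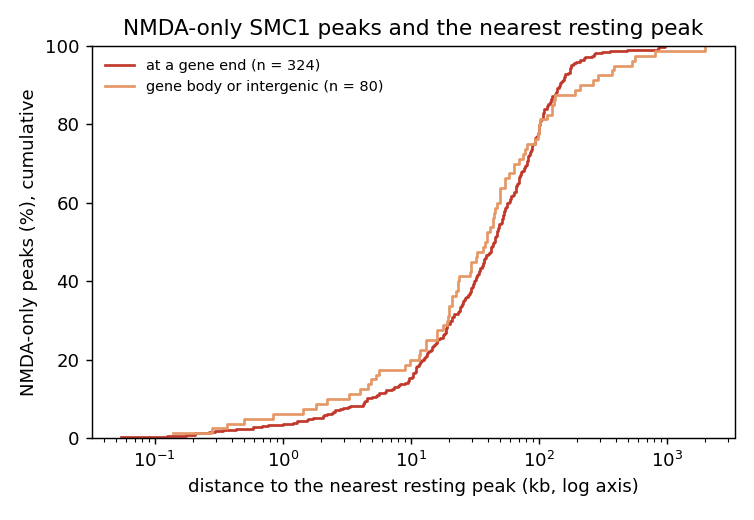
Cumulative percentage of NMDA-only peaks (y axis) by distance to the nearest resting peak (x axis, kb, log scale), for the 324 at a gene end and the 80 inside genes or intergenic. Both curves cross 50% near 40 kb, and few peaks of either kind lie within 1 kb.

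By chromosome, the most NMDA-only peaks lay on chromosome 4 (36), chromosome 7 (35), chromosome 11 (34) and chromosome 10 (32). As a share of the NMDA list they were highest among the autosomes on chromosome 10 (34.8%) and chromosome 4 (32.1%). All 5 NMDA peaks on chromosome X under the ceiling were NMDA-only, at Cask and Rtl5, inside Klhl15 and Kdm6a and near Pak3, while 114 resting-only and no shared peaks lay on that chromosome. None lay on chromosome Y, which had 1 resting-only peak.

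Promoter composition was compared over windows of 300 bases, 250 before and 50 after the start. The NMDA-only peaks held 352 such windows of 303 protein-coding genes, in 270 peaks. Their GC content had a median of 65.7%, against 66.7% under shared NMDA peaks, 64.7% under resting-only peaks and 56.3% in all 21238 windows. The ratio of observed to expected CpG was 0.88, against 0.85, 0.82 and 0.57 in the same order. A window was called CpG-rich when its GC content was at least 50% and that ratio at least 0.6, which held for 322 of 352 (91.5%), 89.8% under shared NMDA peaks, 82.2% under resting-only peaks and 45.1% of all windows. SMC1 promoters of every class were thus CpG-rich, and the further comparisons of motifs are best read within CpG-rich windows.

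Of all 352 windows 27.3% held the CTCF core, against 36.3% under shared NMDA peaks, 36.0% under resting-only peaks and 23.2% of all windows. Within CpG-rich windows the shares were 28.0% (23.1 to 33.2%) under NMDA-only peaks, 36.5% (32.6 to 40.5%) under shared NMDA peaks, 36.6% (34.1 to 39.0%) under resting-only peaks and 30.6% (29.7 to 31.5%) of all. The interval of NMDA-only windows lay below that of resting-only windows and met that of shared NMDA windows at its edge. These intervals treat windows as independent, although the 352 NMDA-only windows lay in 270 peaks. They may therefore be too narrow, and no difference between classes was tested. The share under NMDA-only peaks was close to that of all CpG-rich promoters. The CTCF core as searched is short and covers only the listed forms, so the shares miss sites of other forms. CTCF binding was not measured.

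The SP/KLF motif was in 52.0% of the NMDA-only windows, against 33.9% of all, and the CCAAT box in 38.4%, against 38.2%. Within CpG-rich windows SP/KLF stood at 54.7%, against 57.9% of all, and CCAAT at 39.4%, against 36.1%. The E-box was in 13.6%, against 9.69% under shared NMDA peaks and 7.84% of all, and NRF1 in 10.2%, against 8.00% and 4.43%. Within CpG-rich windows NRF1 stood at 11.2% (7.95 to 15.1%), against 7.70% (7.17 to 8.25%) of all, and the E-box at 14.6% (10.9 to 18.9%), against 11.6% (10.9 to 12.2%). Within each of these pairs the intervals overlap.

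ETS was in 15.3% of NMDA-only windows, against 11.6% of all, YY1 in 8.52%, against 5.25%, and CRE, the site of cAMP-response factors such as CREB, in 12.5%, against 8.48%. Within CpG-rich windows the direction turned, with ETS at 15.8%, against 20.1% of all, YY1 at 9.01%, against 9.49%, and CRE at 12.7%, against 13.1%. AP-1, the site of Fos and Jun, was in 1.70% of NMDA-only windows, against 3.23% under shared NMDA peaks, 3.52% under resting-only peaks and 6.99% of all. TATA was in 2.84%, against 5.23%, 5.86% and 12.6%, and ZNF143 in 2.84%, against 6.15%, 3.73% and 3.60%. Within CpG-rich windows TATA came to 2.48%, against 4.52% of all, ZNF143 to 2.48%, against 3.75%, and AP-1 to 1.24%, against 3.23%. The AP-1 share rests on 4 of 322 windows (0.339 to 3.15%). Of CRE and AP-1, neither motif of activity-driven factors had a higher share under NMDA-only peaks than in all CpG-rich promoters.

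**Figure D5:**
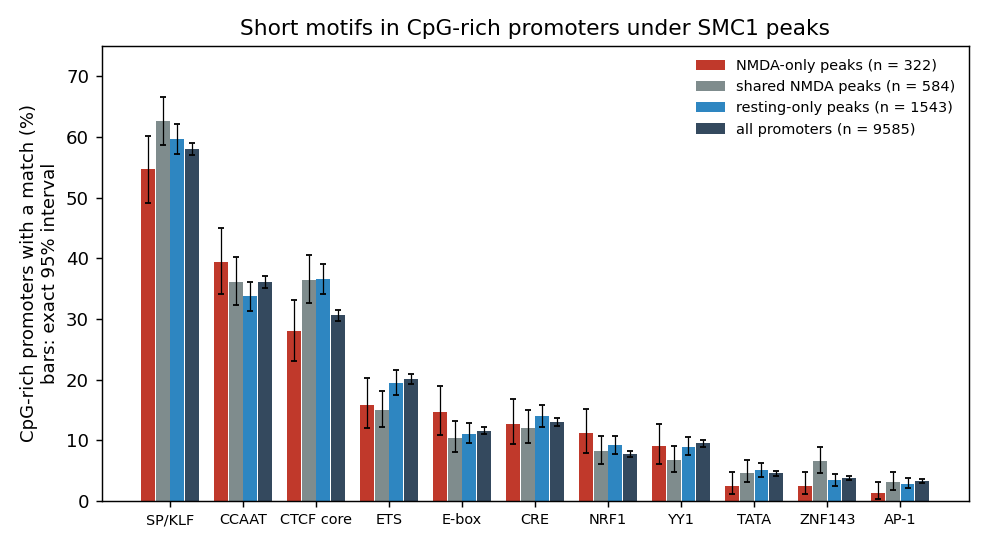
Percentage of CpG-rich promoter windows (y axis) that hold each of 11 short motifs (x axis), under NMDA-only, shared NMDA and resting-only peaks and in all promoters of the table; error bars are exact 95% intervals over windows. The CTCF core is lower under NMDA-only peaks (28.0%) than under shared NMDA (36.5%) and resting-only peaks (36.6%).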

How the data were processed

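SMC1 ChIP and input DNA were taken from NMDA-treated and untreated cultures, 2 samples each, grouped by the antibody and treatment labels. The submitters' processing notes name MACS2, BWA, SAMtools, Trimmomatic and FastQC, with no version, and the builds GRCm38.p6 and mm10. How these were set is not given in the sources used here. For each condition the authors deposited 1 list in the 20-column layout of the IDR tool, with no header. Each deposited line holds the −log10 p of either replicate, their sum in column 8, and −log10 IDR values, whose lowest corresponds to an IDR of 0.05. The deposited IDR score, scaled up to 1000, and the fields with a placeholder were not used. Per the labels, replicates are biological, with no statement that they came from separate litters. Replicate columns 15 and 19 carry no sample name. No list of the inputs and no coverage was used, so the depth behind a peak is unknown.

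Peak classes, gene distances, motif counts and exact Clopper-Pearson 95% intervals were computed with Python 3.11.15, pandas 2.3.3, NumPy 2.4.6 and SciPy 1.17.1. Genes came from the RefSeq table of GRCm38.p6 (49997 rows, no exons) and starts from its promoter table, which held promoters for 298 of the 373 genes with an NMDA-only peak at an end. Since that is under 80%, promoters were counted as windows inside peaks and not as a property of the genes. The scripts were tested on simulated data. The regions and gene lists were chosen with earlier results of these data known. Of the lists, 27 were set with the design and 3 were added after the peaks had been seen. The result of 1 added list is not reported here. Named peaks are the 20 strongest, the 5 at each extreme of strength, width and column ratio, and the strongest of each position class. Named genes are up to 6 of each list by strength, with all of the added chromatin list. Other names were chosen after their values were seen.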

Additional observations from a re-analysis of the deposited data

How the results depend on the processing

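Of 41 alternative settings, 25 left the result within its tolerance, 16 moved it and 0 reversed it. The tolerance was 1.5 times for a count, the exact 95% interval of the main value for a share, and 1 SD between the replicates' own medians for a median, so it is wide for counts and narrow for medians. The number of NMDA-only peaks was 33 with the NMDA list at an IDR up to 0.01 and 686 with the resting list at that limit, against 405. It was 360 to 498 under the other definitions of sharing and 407 with no ceiling. The gene-end share was 70.4% within 0.5 kb, 86.4% within 2 kb, 91.4% within 5 kb, 75.6% for protein-coding genes and 87.9% (29 of 33) at an IDR up to 0.01. Median strength was 9.72 to 11.5 with a single replicate column and 29.3 at an IDR up to 0.01. Median width was 793 to 828 bp with a single replicate's intervals and 1089 bp at an IDR up to 0.01. A resting peak nearby was found for 3.95% within 1 kb and 56.0% within 50 kb. Listed genes with an NMDA-only peak numbered 50 at gene ends, 83 within 10 kb of the gene body, and 74 at gene ends with the 3 added lists, where Ep300 counts in 2 lists. All 11 motif shares stayed within their tolerance when only windows of genes with exactly 1 NMDA-only peak at an end were kept.

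No paired analysis was possible because the replicate columns carry no replicate numbers and the shares come from no test. Each condition has 1 list from 2 ChIP libraries of unknown depth. Whether a peak missing from the resting list differs in SMC1 binding was not tested, and the strengths of the lists cannot be compared without depth.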
